A study of Mus musculus with 43 samples.

Results

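Ovaries that lacked both Wnt4 and Foxl2 were compared with testes, both taken on the day of birth (P0), to see which genes still separated an ovary without these female regulators from a testis. The arrays were chosen by their sample titles, 3 of double null ovary and 3 of testis out of 43 arrays in 15 groups, and were read over the 17404 autosomal genes among 18184 genes measured. The series profiled whole mouse gonads on Affymetrix MOE430 v.2 arrays, with gonads of a single mouse per array and RNA that was linearly amplified before labelling. The double null ovaries are labelled Wnt4-/-Foxl2-/-. The titles of the testes give sex and age only, while the study's methods state that the newborn testes came from Wnt4-null mice, in which testis differentiation is partly defective, so the testes were not wild-type organs, and their Foxl2 genotype is not given in the sources used here. For reference, 3 Wnt4-/- ovaries of P0 that kept 1 Foxl2 copy (Foxl2+/-), 3 ovaries of P0 labelled with no mutation (called wild-type here), and 3 ovaries (Foxl2+/- by label) and 3 testes (no genotype given) of E13 were used. Few double null mice survived to birth, per the study's methods. Ovaries were from mice of mixed CD1, C57BL/6J and NIH-Swiss/BC background. In whole gonads, fewer cells of a type and less RNA per cell cannot be told apart.

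In the fetal testis, Sertoli cells enclose the germ cells in cords, signal through desert hedgehog, and are surrounded by contractile peritubular cells, while Leydig cells between the cords make steroids. In the fetal ovary, WNT4 and R-spondin 1 signal through beta-catenin and FOXL2 acts in the supporting cells, while germ cells enter meiosis and become oocytes. Germ cells of the testis stay out of meiosis before birth and keep several factors of the pluripotent state.

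At this threshold few genes separated the double null ovary from the testis. Signals are given as multiples of the mean to which the authors scaled every array, and differences are on the log2 scale, double null ovary minus testis, after adding 1% of that mean. By limma with Benjamini-Hochberg adjustment, 381 of the 17404 autosomal genes passed an adjusted p of 0.05, which is 2.19% of those tested. Of these, 231 genes were higher in the double null ovary (1.33%) and 150 were lower (0.862%). In the same fit, 5022 genes separated the wild-type ovary from these testes (28.9%) and 2421 separated the Wnt4-null ovary from them (13.9%). The median difference over all genes was -0.013, and for 11163 genes (64.1%) the 95% interval of the difference lay within 1 log2 unit on either side of 0. At an unadjusted p under 0.05 there were 2778 genes. With 3 arrays a group, the count depended on single arrays: it was 129 without double null ovary array 3, 129 without testis array 1, and 236 without testis array 3. The genes higher in the double null ovary numbered 131 without double null ovary array 2, 71 without array 3 and 82 without testis array 1, and the lower genes 58, 47 and 64 without double null ovary array 3, testis array 1 and testis array 3. Fitted on the 6 arrays alone, 151 genes passed, and among the genes described below Foxl2, Emx2, Rspo1, Axin2, Nlrp5, Dazl, Myh11, Actg2, Boc, Kdr and Efnb2 did not (adjusted p = 0.056 to 0.2). The count for the Wnt4-null ovary was 1531, 1400 and 1463 without its array 2, its array 3 and testis array 1.

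The targeted genes were read first. At the brighter Foxl2 probe set, the double null ovaries read 0.682, 0.826 and 0.739 and the testes 0.214, 0.145 and 0.000528. Wild-type ovaries read 14.6 to 16.8 and Wnt4-null ovaries 5.13 to 5.9. The double null ovaries therefore lay far below both other ovaries and above every testis. Their difference from the testis was 3.4 (SE 0.51, adjusted p = 0.000133 by limma), a size set in part by testis array 3, without which it was 2.02. As the median over the probe sets of Foxl2 it was 1.55. At the other Foxl2 probe set, double null ovaries read at most 0.00232 and testes at most 0.00617, against 0.279 to 0.484 in wild-type ovaries, all double null and testis values there being below the pseudocount. The brighter probe set kept signal in the Foxl2 single null ovaries of P0 as well, at 1.36 to 2.42. Where either probe set lies relative to the deleted part of Foxl2 is not given in the sources used here. Foxl2os, the antisense neighbour of Foxl2, read 0.536, 1.04 and 1 in double null ovaries and 0.00929, 0.164 and 0.0936 in testes, a rise of 3.57 (SE 0.43, adjusted p = 2.04e-06). Whether its probe set also reads Foxl2 was not tested.

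The 2 Wnt4 probe sets differed. At the brighter, Wnt4 read 0.176, 0.292 and 0.375 in double null ovaries and 0.17, 0.164 and 0.327 in testes. These groups overlapped, and the difference of 0.35 did not pass (adjusted p = 0.633, 95% interval -0.22 to 0.91). Wnt4-null ovaries read 0.2 to 0.306 and wild-type ovaries 0.581 to 0.745. At the other, double null ovaries read 0.0679, 0.148 and 0.169 and testes 0.0333, 0.0427 and 0.0211, without overlap, and the difference of 1.65 passed (SE 0.29, adjusted p = 0.00094). Wild-type ovaries read 0.611 to 0.814 and Wnt4-null ovaries 0.15 to 0.174 there. As the median over both probe sets the difference was 1 (adjusted p = 0.00188). Where they lie relative to the disrupted part of Wnt4 is not given in the sources used here.

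Xist, the RNA that coats the inactive X chromosome, read 12.1 to 15 in double null ovaries and 0.0268 to 0.0607 in testes at its brightest probe set, as the labelled sexes require. Over all probe sets, Pearson correlations of log2 signals were 0.963 to 0.972 within the double null ovaries, 0.955 to 0.966 within the testes and 0.945 to 0.965 between the groups.

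Among Sertoli cell genes, none of the 24 measured passed the test between double null ovary and testis. Of all genes 2.19% did, a share at which a list this short may hold no call. In wild-type ovary 20 of the 24 were lower than in these testes, a direction in which 12% of all genes were called. The list's median difference was -0.27, against -2.70 for the wild-type ovary. Sox9, the transcription factor that directs Sertoli differentiation, read 2.31, 2.6 and 2.03 in double null ovaries and 2.87, 2.39 and 2.87 in testes. Those values overlapped, and all exceeded the 0.216 to 0.789 of wild-type ovaries. Its difference from the testis was -0.23 (SE 0.36, adjusted p = 0.844, 95% interval -0.96 to 0.50). Dhh, the hedgehog ligand of Sertoli cells, read 5.14, 4.65 and 4.68 in double null ovaries, within the testis range of 2.99 to 7.64, and 0.0705 to 0.0982 in wild-type ovaries. Amh, which makes the Müllerian duct regress, was read by a probe set that did not separate the sexes at E13 either (ovary minus testis -0.34, adjusted p = 0.369), so its values are no measure of Sertoli cells here, with 0.559 to 0.726 in double null ovaries, 0.621 to 0.764 in testes and 0.426 to 0.776 in wild-type ovaries.

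Several Sertoli genes lay below the testis and above the wild-type ovary without passing the test. Dmrt1, which maintains Sertoli identity and is also made in germ cells, read 1.27, 1.73 and 1.41 in double null ovaries and 5.53, 4.26 and 4.26 in testes. No double null value reached a testis value, and the difference was -1.66 (SE 0.49, adjusted p = 0.0698). Hsd17b3, which makes testosterone from androstenedione and is a Sertoli enzyme before birth, read 1.9, 2.7 and 2.11 against 9.14, 3.68 and 7.76 in testes, a difference of -1.53 (adjusted p = 0.0915). Ptgds, a prostaglandin D synthase, read 3.54, 3.14 and 3.73 against 8.89, 5.92 and 8.2, a difference of -1.12 (adjusted p = 0.237). Each of these 3 genes was lower in all double null arrays than in all testis arrays, an arrangement found in either direction for 20.1% of all autosomal genes. Shbg and Mro had the same arrangement, with differences of -1.12 (adjusted p = 0.0603) and -1.02 (adjusted p = 0.0676). Summed over the 24 genes, the signal was 81.4 to 83 in double null ovaries, 88.2 to 128 in testes and 21 to 23.9 in wild-type ovaries. Of the 24 genes, 11 had a 95% interval within 1 log2 unit of 0, where 64.1% of all genes did. The count of lower genes rose to 5 with a pseudocount of 5% of the mean, to 3 without testis array 2 and to 3 when the 6 arrays were fitted alone, where Dmrt1, Hsd17b3 and Ptgds passed (adjusted p = 0.00213, 0.0413 and 0.0144).

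Against the wild-type ovary, 19 of the 24 Sertoli genes were higher in the double null ovary, a direction in which 9.38% of all genes were called. The Wnt4-null ovary had 15 that were lower than in testis, against 5.90% of all genes. Against the Wnt4-null ovary, 6 of the 24 were higher in the double null ovary and none lower (Sox9, Dmrt1, Cst9, Ptgds, Tesc and Cyp26b1), where 0.414% of all genes were called higher and 0.511% lower. Sox9 read 0.505 to 0.764 in the Wnt4-null ovaries, a difference of 1.84 (adjusted p = 0.00412). Dmrt1 read 0.133 to 0.362 there, a difference of 2.67 (adjusted p = 0.00194). Cyp26b1, which degrades retinoic acid around germ cells of the testis, rose by 1.75 over the Wnt4-null ovary (adjusted p = 0.00567) and read 3.89, 3.51 and 2.4 in double null ovaries against 4.52, 3.27 and 4.71 in testes. Dhh was not among these 6, and read 2.69 to 3.41 in Wnt4-null ovaries.

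**Figure D1:**
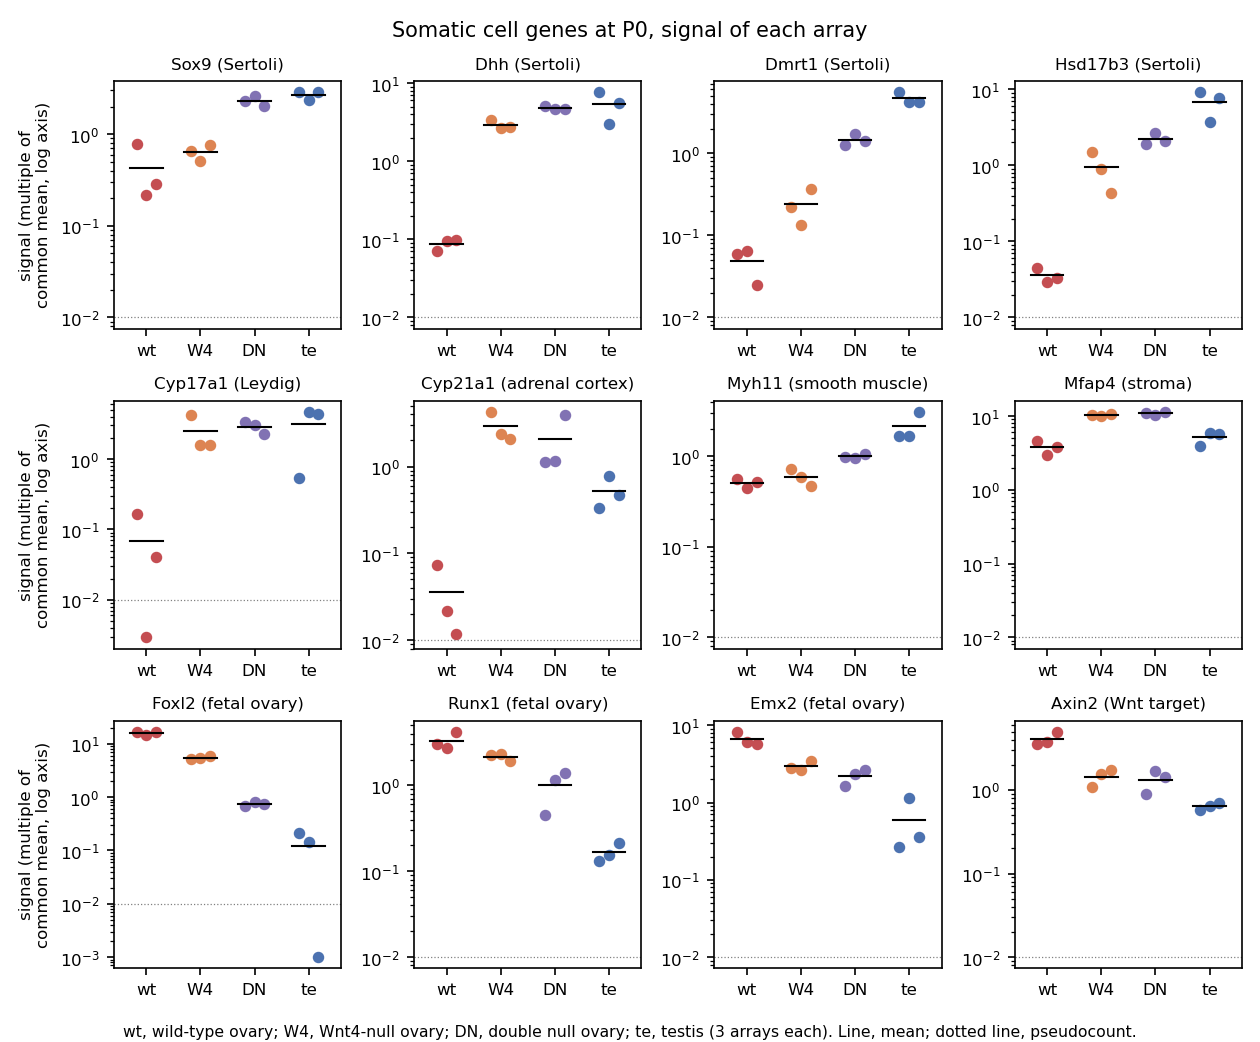
Signal of 12 somatic cell genes in each array of P0, as multiples of the common mean on a log axis (3 arrays a group; horizontal line, mean; dotted line, pseudocount). The Foxl2 value of testis array 3 (0.000528) is drawn at the lowest signal shown, 0.001. Sox9 and Dhh of the double null ovaries overlap the testes, while Dmrt1, at 1.27 to 1.73, lies below the testes at 4.26 to 5.53 and above the wild-type ovaries.

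Steroid genes of Leydig cells gave no call. None of the 10 measured passed the test, where 2.19% of all genes did, and at that share a list this short may hold no call. Their median difference was 0.07, while 8 were lower in wild-type ovary than in testis (12% of all genes were). Cyp17a1, which makes androgen precursors, read 3.37, 3 and 2.26 in double null ovaries and 0.532, 4.63 and 4.29 in testes. Testis array 1 stood apart here, below every double null ovary. Cyp11a1, the side chain cleavage enzyme, and Star, which carries cholesterol into mitochondria, were also lowest in that array, at 1.31 against 4.14 and 4.45, and at 2.32 against 6.45 and 5.88. The 95% interval of the difference was -1.04 to 1.77 for Cyp17a1, and the median of the list was -0.40 without testis array 1. Wild-type ovaries read 0.00294 to 0.165 for Cyp17a1.

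Some genes of the adrenal cortex read higher in double null ovaries than in testes without passing the test. The list's median difference was 1.32 over 5 genes, with 0 calls (2.19% of all genes were called). Mrap and Cyp11b2 of this list differed by only 0.16 and 0.15 (adjusted p = 0.822 and 0.896 by limma). Cyp21a1, the steroid 21-hydroxylase of the adrenal, read 1.14, 1.15 and 3.94 in double null ovaries and 0.329, 0.783 and 0.474 in testes. The groups did not overlap, double null array 3 was the highest of the 6, and the difference was 1.78 (SE 0.53, adjusted p = 0.079). Cyp11b1, the 11-beta-hydroxylase, read 0.359, 0.559 and 1.16 against 0.203, 0.226 and 0.267, a difference of 1.38 (adjusted p = 0.247). In Wnt4-null ovaries, 3 of the 5 genes were higher than in testis (8.01% of all genes were), and Cyp21a1 read 2.07 to 4.26. Pnmt, the enzyme that makes adrenaline, read 11.4 to 12 in double null ovaries, 6.51 to 7.64 in testes and 0.356 to 0.581 in wild-type ovaries, with a difference from testis of 0.73 that did not pass (adjusted p = 0.497), but passed when the 6 arrays were fitted alone (adjusted p = 0.0206). The other catecholamine genes stayed low, and Dbh, which the adrenaline pathway needs, read 0.0305 to 0.0911 across the 6 arrays.

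Smooth muscle genes, which mark peritubular cells, included 2 that were lower in double null ovary among 10 measured (0.862% of all genes were). The list's median difference was -0.61. Myh11, the smooth muscle myosin heavy chain, read 0.989, 0.964 and 1.07 in double null ovaries and 1.67, 1.68 and 3.07 in testes, a fall of 1.02 (SE 0.24, adjusted p = 0.0166). Actg2, a smooth muscle actin, read 0.0918, 0.0844 and 0.107 against 0.107, 0.62 and 0.614 in testes. Testis array 1 matched the double null ovaries for Actg2, and the other two testes were high (difference -1.78, SE 0.40, adjusted p = 0.0111). Acta2, the actin most used to mark peritubular cells, read 4.77, 4.29 and 6.19 against 6.24, 8.83 and 9.39, a difference of -0.68 (adjusted p = 0.343). Neither of these calls held without testis array 3. Myh11 also did not pass without double null array 2 or 3, nor Actg2 without testis array 2.

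Stromal genes of the interstitium gave a single call. Of 14 measured, 1 was higher, Mfap4 (1.33% of all genes were), and the median difference was 0.18. For the wild-type ovary 11 were lower than in testis (12% of all genes were) and the median was -0.88. Mfap4, a microfibril-associated glycoprotein, read 11, 10.4 and 11.3 in double null ovaries and 3.91, 5.91 and 5.65 in testes. The rise of 1.10 (SE 0.19, adjusted p = 0.000574) set the double null ovary above both references, since wild-type ovaries read 2.95 to 4.53, and Wnt4-null ovaries read 9.95 to 10.8. It passed without any single array of the 2 groups. Pdgfra, the receptor of Leydig precursors and stroma, read 10.8, 12 and 11.3 against 8.7, 8.14 and 6.89, with a difference of 0.53 that did not pass (adjusted p = 0.181), and 1.93 to 2.39 in wild-type ovaries.

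Hedgehog signalling genes also gave a single call. Ptch1, the receptor whose transcription hedgehog signalling raises, read 17.9, 15 and 14.1 in double null ovaries, 18.9, 17.8 and 15.3 in testes and 4.34 to 6 in wild-type ovaries. The difference from testis was -0.15, with a 95% interval of -0.50 to 0.20. Gli1, another transcriptional target, read 0.801 to 0.883 against 0.465 to 0.535, a difference of 0.76 that did not pass (adjusted p = 0.62). Of 12 genes, 1 was higher (1.33% of all genes were), the coreceptor Boc, which was higher by 0.83 (adjusted p = 0.0286) and lost the call without double null array 2 or 3 or without any testis array.

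Genes of the fetal ovary's somatic cells held more calls than any other somatic list. Of 16 measured, 5 were higher in double null ovary than in testis, where 1.33% of all genes were, and none was lower. The median difference was 0.44, against 2.12 for the wild-type ovary, in which 11 were higher than in testis (16.8% of all genes were). The list includes both targeted genes, and the call of Foxl2 comes from the probe set that kept signal in Foxl2 single null ovaries. The other 4 genes called were Runx1, Emx2, Irx3 and Rspo1. Their mean signals in double null ovaries lay between those of testis and wild-type ovary. The count was 4 without double null array 3 or testis array 1, and 2 when the 6 arrays were fitted alone.

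Runx1, a runt transcription factor of ovarian supporting cells, read 0.456, 1.15 and 1.4 in double null ovaries and 0.131, 0.156 and 0.213 in testes. Every double null ovary was above every testis, and the rise was 2.39 (SE 0.26, adjusted p = 2.79e-07). Its next probe set gave a rise of 2.25 (adjusted p = 3.14e-06), while the 4 dimmer ones did not pass. Wild-type ovaries read 2.7 to 4.2, a fall of 1.84 in the double null ovary (adjusted p = 1.95e-06).

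Emx2, a homeobox factor needed to form the gonad, read 1.63, 2.34 and 2.6 in double null ovaries and 0.267, 1.15 and 0.358 in testes. The groups did not overlap, although testis array 2 stood above the other testes, and the rise was 2.14 (SE 0.26, adjusted p = 2.7e-06). Irx3, an Iroquois factor of the early ovary, read 0.36, 0.632 and 1.58 against 0.169, 0.0709 and 0.0972, a rise of 2.64 (SE 0.43, adjusted p = 0.00038). Rspo1, the secreted activator of WNT signalling in the ovary, read 1.39, 2.08 and 2.78 against 0.599, 1.49 and 1.08. Double null array 1 fell inside the testis range for Rspo1, and the rise of 1.01 (SE 0.23, adjusted p = 0.0135) did not pass without double null array 3, or without testis array 1, when it was 0.65. Double null array 1 was the lowest of its group for each of these 4 genes.

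Other ovarian genes did not pass. Fst, the activin antagonist follistatin, read 0.0475, 0.155 and 0.141 in double null ovaries, 0.033, 0.0833 and 0.106 in testes and 0.895 to 1.08 in wild-type ovaries. These double null and testis values overlapped (difference 0.54, adjusted p = 0.487). Lgr5, an R-spondin receptor, read 0.00296, 0.0211 and 0.0165 against 0.0661, 0.031 and 0.0643, a difference of -1.48 that did not pass (adjusted p = 0.0756). Its sign was opposite to the 3.08 of the wild-type ovary. The double null values of Lgr5 lay near the pseudocount, so the size of the difference depends on it. Over the alternative settings the Lgr5 difference ran from -2.17 to -0.7.

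Among 14 targets of canonical WNT signalling, 1 was higher in the double null ovary (1.33% of all genes were), and the median difference was -0.12. Axin2, a feedback inhibitor that the pathway induces in most tissues, read 0.883, 1.7 and 1.42 in double null ovaries and 0.579, 0.651 and 0.701 in testes. All double null ovaries were above all testes, by 0.99 (SE 0.20, adjusted p = 0.00362), and the call held without any single array of these groups. Wnt4-null ovaries read 1.07 to 1.72 and wild-type ovaries 3.51 to 4.95. Lef1, a pathway transcription factor that is also a target, read 0.343, 1.04 and 0.51 against 0.581 to 0.676 in testes (difference -0.11, adjusted p = 0.912).

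**Figure D2:**
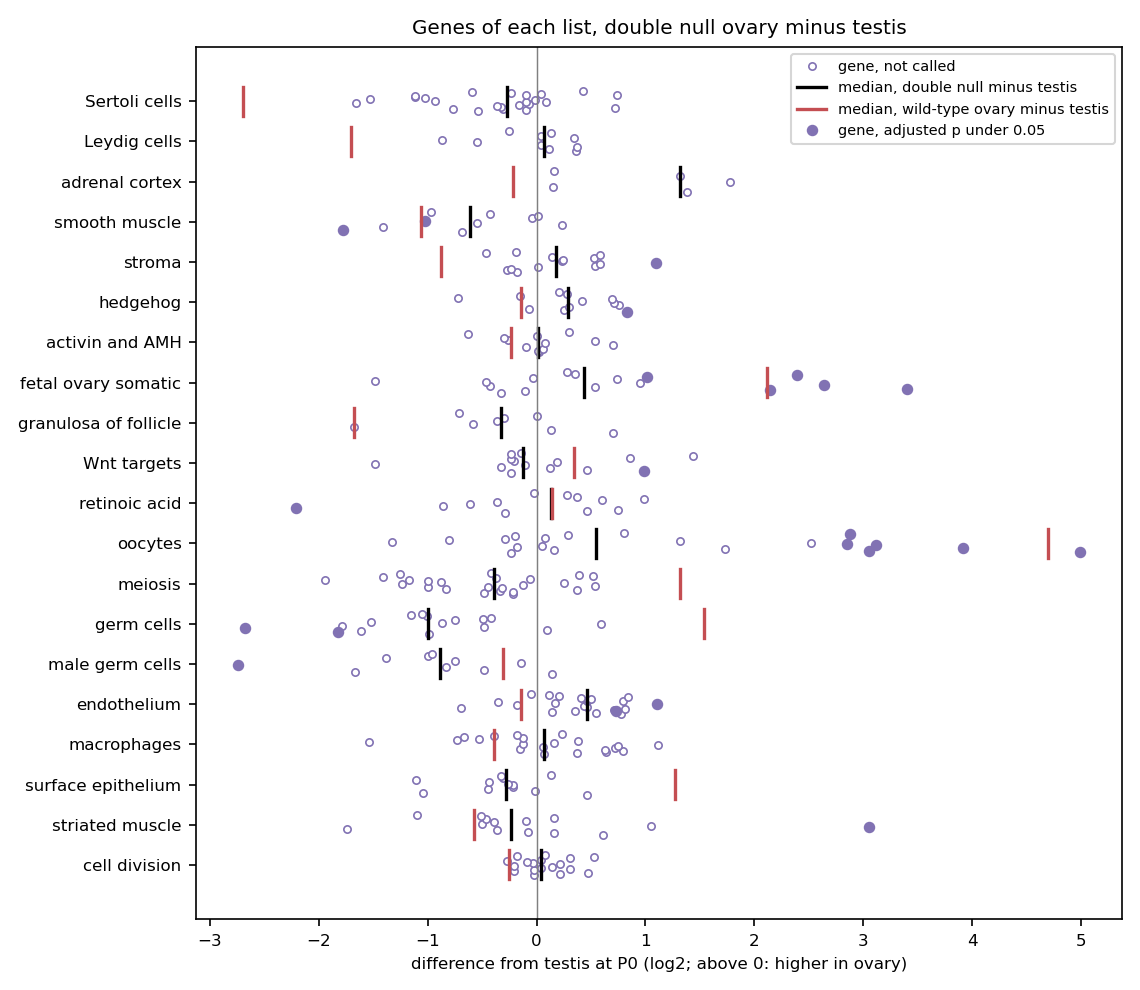
Difference between double null ovary and testis of P0 (log2, above 0 higher in ovary) for each measured gene of 20 lists (point, gene; filled, adjusted p under 0.05; black line, list median; red line, median of the same genes for wild-type ovary minus the same testes). The Sertoli median moves from -2.70 to -0.27 and the oocyte median from 4.70 to 0.55, and 6 oocyte and 5 fetal ovary somatic genes are filled on the right.

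Oocyte genes gave the most calls of any list. Of 20 measured, 6 were higher in double null ovary than in testis (Dppa3, Lhx8, Nlrp5, Figla, Zp2 and Nobox) and none was lower, where 1.33% of all genes were higher. The median difference was 0.55, against 4.70 for the wild-type ovary, in which 18 were higher (16.8% of all genes were), and against wild-type ovaries 19 of the 20 were lower in the double null ovary, a direction in which 13.8% of all genes were called. The 6 genes encode oocyte transcription factors (FIGLA, NOBOX and LHX8), maternal effect factors (DPPA3 and NLRP5) and the zona pellucida protein ZP2. The count was 2 without double null array 2 and 2 without testis array 1.

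The promoters of the 3 transcription factor genes are shown as background, since FIGLA binds E-boxes (CANNTG, a palindrome, so both strands match together). Whether FIGLA or E-boxes had a part in the rise of these genes was not tested. Each window runs from 250 bases before to 50 after the start of the gene in RefSeq (GRCm38.p6), is written 5′ to 3′ on the strand of the gene, and has E-boxes in capitals.
Figla, chr6:86016941-86017240, plus strand: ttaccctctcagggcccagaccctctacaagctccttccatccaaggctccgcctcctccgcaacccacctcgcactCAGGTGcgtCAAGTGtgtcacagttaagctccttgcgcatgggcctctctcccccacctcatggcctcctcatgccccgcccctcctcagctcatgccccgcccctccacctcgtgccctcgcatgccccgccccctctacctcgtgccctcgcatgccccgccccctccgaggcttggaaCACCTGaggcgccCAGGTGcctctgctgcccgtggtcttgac
Nobox, chr6:43309505-43309804, minus strand: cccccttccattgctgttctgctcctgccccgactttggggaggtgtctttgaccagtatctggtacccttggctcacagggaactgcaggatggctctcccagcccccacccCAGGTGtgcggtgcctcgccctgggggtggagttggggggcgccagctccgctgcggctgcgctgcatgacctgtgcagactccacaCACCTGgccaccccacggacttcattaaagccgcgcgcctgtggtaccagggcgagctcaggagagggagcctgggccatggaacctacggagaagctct
Lhx8, chr3:154330511-154330810, minus strand: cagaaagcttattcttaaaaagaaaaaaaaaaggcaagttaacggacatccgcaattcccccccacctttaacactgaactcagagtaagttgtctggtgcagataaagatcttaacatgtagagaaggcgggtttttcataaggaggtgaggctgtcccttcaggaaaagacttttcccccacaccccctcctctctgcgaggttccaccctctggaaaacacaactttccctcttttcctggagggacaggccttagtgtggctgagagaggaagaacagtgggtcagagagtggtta
The Figla window held 4 E-boxes, that of Nobox 2 and that of Lhx8 0. The 2 windows listed for Nlrp5 held 2 each. Of 32851 promoter windows of this length, 72.3% held at least 1 E-box and 6.49% held 4 or more. The windows of Dppa3 and Zp2 were not used here.

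Figla, the master regulator of primordial follicle genes, read 0.252, 0.989 and 0.342 in double null ovaries and 0.0508, 0.0201 and 0.0779 in testes. The groups did not overlap, double null array 2 was the highest, and the rise was 3.05 (SE 0.72, adjusted p = 0.0175). Nobox, a homeobox factor of primordial follicles, read 0.182, 0.657 and 0.218 against 0.0224, 0.0268 and 0.0553, a rise of 2.85 (SE 0.66, adjusted p = 0.016). Lhx8, a LIM homeobox factor of the oocyte, read 0.362, 1.35 and 0.434 against 0.0509, 0.0229 and 0.022, a rise of 3.92 (SE 0.85, adjusted p = 0.0096). Double null array 2 was the highest array for all 3 genes, and none of them passed without it. Nobox also failed to pass without testis array 1, and Figla without double null array 3, testis array 1 or testis array 2. Wild-type ovaries read 4.78 to 8.89 for Figla, 4.02 to 6.51 for Nobox and 6 to 7.7 for Lhx8.

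Dppa3, also called Stella, which protects the maternal genome from demethylation, rose most of all genes named here. It read 3.19, 9.33 and 2.4 in double null ovaries and 0.122, 0.0874 and 0.165 in testes, a rise of 4.99 (SE 0.69, adjusted p = 3.15e-05) that passed without any single array. Wild-type ovaries read 21.6 to 49. Nlrp5, a subunit of the subcortical complex of the egg, read 0.433, 1.78 and 0.207 against 0.0235, 0.0759 and 0.0807, a rise of 3.12 (adjusted p = 0.00367) that did not pass without double null array 2 or testis array 1. Zp2 read 0.074, 0.226 and 0.112 against 0.0000763, 0.0126 and 0.0167, a rise of 2.88 (adjusted p = 0.00415) that did not pass without testis array 1. Testis values of Zp2 lay near the pseudocount, so the size of this rise depends on it, and with a pseudocount of 5% of the mean it was 1.58 and did not pass.

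Other oocyte genes did not pass. Gdf9, a growth factor secreted by the oocyte, read 0.199, 0.229 and 0.25 in double null ovaries, within the testis range of 0.13 to 0.316, and 2.6 to 6.7 in wild-type ovaries. Its difference from testis was 0.16 (adjusted p = 0.888, 95% interval -0.51 to 0.83). Zp3 read 0.02, 0.127 and 0.039 against 0.0158 to 0.0319 in testes, with a difference of 0.80 and an interval of -1.56 to 3.16. Sohlh1, a factor shared by oocytes and spermatogonia, read 0.517, 1.46 and 0.581 against 1.3, 0.664 and 0.945 (difference -0.29, adjusted p = 0.852).

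None of 24 meiosis genes passed the test, where 2.19% of all genes did. Their median difference was -0.39, against 1.32 for the wild-type ovary. Sycp3, a component of the synaptonemal complex, read 1.16, 2.9 and 0.927 in double null ovaries and 1.3, 0.833 and 0.977 in testes. Double null array 2 alone stood above the testes. The difference was 0.52 (adjusted p = 0.599), while wild-type ovaries read 7.39 to 11.5. Stra8, which starts meiosis, read 0.0558 to 0.0836 in double null ovaries and 0.552, 0.0821 and 0.576 in testes (difference -1.94, adjusted p = 0.327). For 1 of the 24 genes, the interval lay within 1 log2 unit of 0, where 64.1% of all genes had such an interval.

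Genes common to germ cells of both sexes included 2 that fell. Of 16 measured, 2 were lower in double null ovary than in testis (0.862% of all genes were) and none was higher, with a median difference of -1. Dazl, an RNA-binding protein that licenses germ cells for their sexual fate, read 0.617, 1.9 and 0.51 in double null ovaries and 3.67, 2.03 and 3.67 in testes. Every double null ovary was below every testis, and the fall was 1.82 (SE 0.39, adjusted p = 0.00821), while wild-type ovaries read 4.06 to 5.38. Ddx4, the germ cell helicase, read 0.148, 0.436 and 0.186 against 0.952, 0.509 and 0.77, a difference of -1.61 that did not pass (adjusted p = 0.177). Neither of the 2 calls held without double null array 3 or without testis array 1, and the count was 4 without double null array 2. Double null array 2 had the highest summed signal of its group for this list, 12.9 against 4.44 and 4.23, and for the oocyte list, 17.9 against 5.94 and 5.58, while the testes summed to 10.2 to 18.3 and to 1.61 to 2.56.

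The second germ cell gene called was Dppa4, a chromatin factor of pluripotent and early germ cells. It read 0.149, 0.277 and 0.0672 in double null ovaries and 1.2, 0.608 and 1.25 in testes, a fall of 2.68 (SE 0.58, adjusted p = 0.00945) that also did not pass without testis array 3. Sall4, a zinc finger factor of stem cells and undifferentiated spermatogonia that is in none of the germ cell lists and was named as one of the 12 largest falls, read 0.232, 0.492 and 0.226 against 3.87, 2.34 and 4.79, a fall of 3.53 (SE 0.60, adjusted p = 0.000657). Wild-type ovaries read 0.908 to 2.43 for Sall4, above every double null ovary and overlapping the lowest testis. Morc1, which represses transposons in male germ cells, was the single gene called among 10 of male germ cells (0.862% of all genes were lower), whose median was -0.89. It read 0.0356, 0.0889 and 0.0664 against 0.551, 0.275 and 0.632, a fall of 2.74 (SE 0.53, adjusted p = 0.00305). Other genes of these lists did not pass, among them the pluripotency factor Pou5f1 (difference -1.52, adjusted p = 0.105), the GDNF coreceptor Gfra1 (-1.67, adjusted p = 0.189), the nodal antagonist Lefty2 (-0.83, adjusted p = 0.255) and the piRNA pathway gene Piwil4 (-0.75, adjusted p = 0.546). Dnmt3l, which sets methylation marks in prospermatogonia, read 0.114 to 0.14 against 0.0955 to 0.128, with overlapping values and an interval of -0.43 to 0.71.

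**Figure D3:**
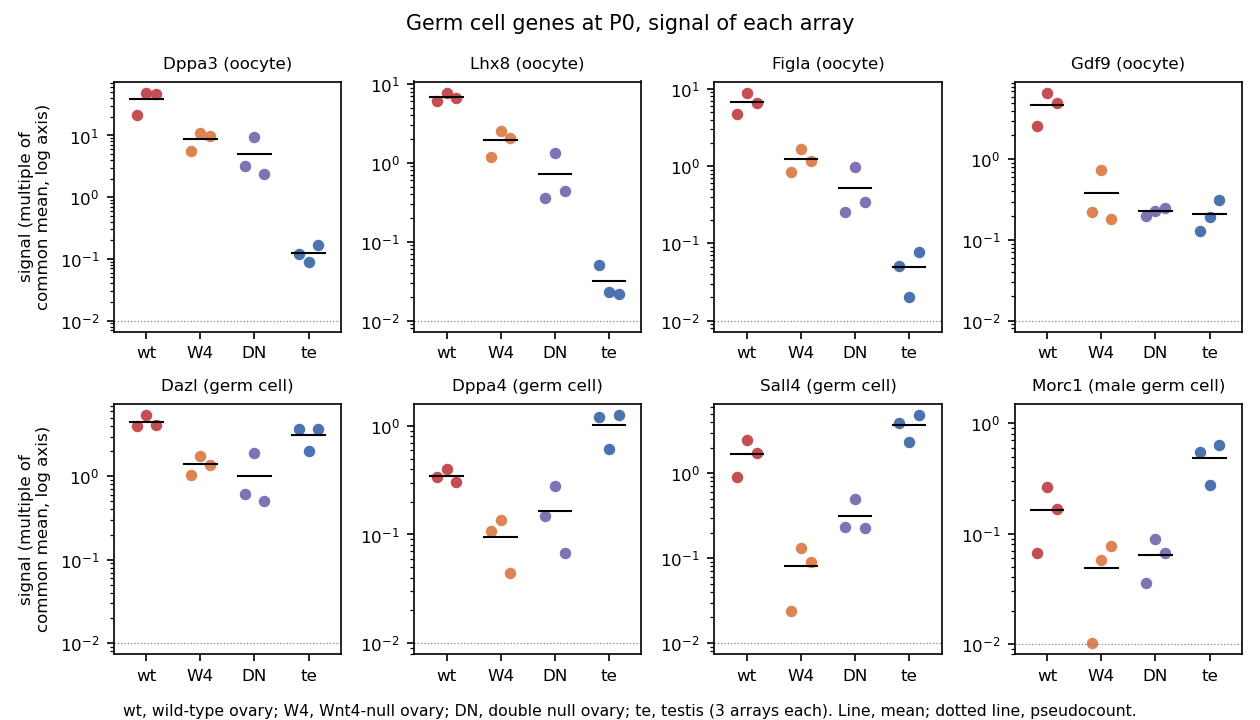
Signal of 8 germ cell genes in each array of P0, as multiples of the common mean on a log axis (3 arrays a group; horizontal line, mean; dotted line, pseudocount). Dppa3, Lhx8 and Figla of the double null ovaries lie between testis and wild-type ovary, Gdf9 overlaps the testes, and Dazl, Dppa4, Sall4 and Morc1 lie below all testes.

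Among endothelial genes, 2 of 23 were higher in the double null ovary (1.33% of all genes were), with a median difference of 0.46 and 0 lower. Kdr, the main VEGF receptor, read 1.79, 3 and 2.68 in double null ovaries and 0.739, 1.44 and 1.31 in testes, a rise of 1.11 (SE 0.22, adjusted p = 0.00456). Efnb2, an ephrin of arteries, read 1.21, 1.57 and 1.45 against 0.745, 0.97 and 0.833, a rise of 0.73 (adjusted p = 0.0363). Neither passed without testis array 1. Efnb2 also did not pass without double null array 2 or 3, or testis array 3. Cdh5, the cadherin of endothelial junctions, read 3.95, 4 and 4.08 against 2.3, 2.9 and 3.08, a difference of 0.55 (adjusted p = 0.0753), and Pecam1 read 0.589 to 0.676 against 0.393 to 0.541 (difference 0.46, adjusted p = 0.428).

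Of 21 macrophage genes none passed (2.19% of all genes did). The median difference was 0.07, and the summed signal was 10.3 to 14.9 in double null ovaries and 8.89 to 11.9 in testes. H2-Ab1, a class II histocompatibility chain, rose by 2.32 (SE 0.46, adjusted p = 0.00375), with 0.576, 0.682 and 0.914 in double null ovaries against 0.125, 0.165 and 0.119 in testes. Its other probe sets differed by 1.19 and 0.55 and did not pass (adjusted p = 0.0936 and 0.635). Its partners, looked up after these values were seen, differed between themselves: H2-Aa read 0.726 to 0.795 against 0.795 to 1.18 in testes (difference -0.33, adjusted p = 0.368), and the invariant chain Cd74 read 0.238, 0.407 and 0.509 against 0.0495, 0.178 and 0.187, a rise of 1.54 (adjusted p = 0.0415).

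Surface epithelium genes varied widely within both groups. None of 12 passed (2.19% of all genes did), and the median difference was -0.28. Upk3b, a uroplakin of the mesothelium, read 0.109, 1.92 and 2.94 in double null ovaries and 0.268, 1.49 and 1.24 in testes. Array 1 was the lowest of its group in both, and the summed signal of the list was 3.12, 9.02 and 15.1 in double null ovaries and 4.74, 11.7 and 9.33 in testes. Without double null array 1 the median difference was 0.57 and 2 genes were higher. Double null array 1 was also the lowest of its group for Runx1, Emx2, Irx3 and Rspo1, and the part of the surface epithelium in those differences was not tested.

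**Figure D4:**
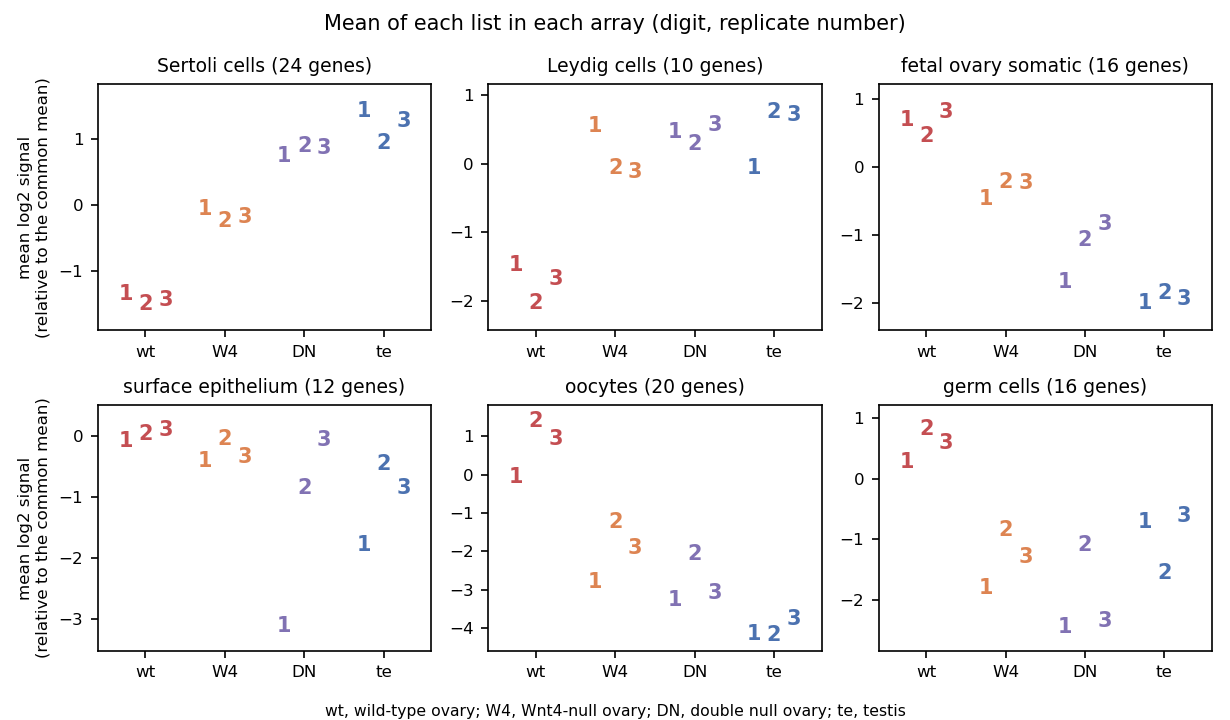
Mean log2 signal of 6 gene lists in each array of P0, relative to the common mean (digit, replicate number). Double null array 1 lies lowest of its group for fetal ovary somatic and surface epithelium genes, and double null array 2 lies highest of its group for oocytes and germ cells.

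Further genes were named because they were among the 12 largest rises or falls. Myh8, the perinatal myosin heavy chain, read 2.75, 1.99 and 1.95 in double null ovaries and 0.265, 0.231 and 0.276 in testes, a rise of 3.05 (SE 0.35, adjusted p = 7.32e-07). At E13 Myh8 was also higher in ovary than in testis, by 2.26 (adjusted p = 1.68e-05 by limma). At P0, wild-type ovaries read 0.329 to 0.443 and Wnt4-null ovaries 1.88 to 2.17. Myh8 was high in both kinds of ovary that lacked Wnt4, but not in the testes, which also lacked Wnt4 per the study's methods. It was the single gene called among 14 of striated muscle (1.33% of all genes were higher), and the defining muscle genes Acta1, Ckm and Myl1 did not pass (adjusted p = 0.534, 0.47 and 0.649), with Acta1 at 0.0152 to 0.0369 in double null ovaries. Tmem178, a transmembrane protein, read 0.577, 0.945 and 1.1 against 0.0823, 0.163 and 0.161, a rise of 2.61 (SE 0.28, adjusted p = 2.79e-07), with wild-type ovaries at 0.845 to 1.34.

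The largest fall among the genes named was that of Afp, alpha-fetoprotein, which read 0.0536, 0.211 and 0.0281 in double null ovaries and 1.93, 0.801 and 1.77 in testes. The change of -4.12 had a wide error (SE 1.10, adjusted p = 0.0429), and did not pass without double null array 1 or 3 or without testis array 1 or 3. Ret, the receptor of GDNF on undifferentiated spermatogonia, read 0.0271, 0.015 and 0.0588 against 0.92, 0.188 and 0.626, a fall of 3.61 (SE 0.55, adjusted p = 0.000137). Wild-type ovaries read 0.025 to 0.0607 for Ret, overlapping the double null ovaries. Gdnf itself read 0.079 to 0.117 in double null ovaries against 0.148 to 0.281 in testes (difference -0.93, adjusted p = 0.283). Pmaip1, the pro-apoptotic protein Noxa, read 0.0361 to 0.044 against 1.3, 0.542 and 0.47, a fall of 3.80 (SE 0.49, adjusted p = 7.64e-06). Wild-type ovaries read 0.0269 to 0.0628 for Pmaip1, overlapping the double null ovaries. The other large falls were those of Rxfp1, the relaxin receptor, Myh2, a fast myosin heavy chain, Pex5l, Zfyve28 and Slc35f3, with differences of -3.76, -2.95, -2.75, -2.64 and -2.63. Every double null ovary was below every testis for each of them, which the rule for naming the largest falls required. Rxfp1 lay below the pseudocount in 2 double null ovaries. Pex5l (adjusted p = 0.0202) did not pass without double null array 2 or 3 or testis array 1 or 3.

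Glis3 and Crabp1 set the double null ovary below both the testis and the wild-type ovary. Glis3, a Krüppel-like zinc finger factor, read 0.0363, 0.0972 and 0.0676 in double null ovaries, 0.783, 0.467 and 0.783 in testes and 0.595 to 1.01 in wild-type ovaries. Its fall from the testis was 3.20 (SE 0.36, adjusted p = 6.84e-07) and that from the wild-type ovary 3.32 (adjusted p = 1.72e-08). Crabp1, a retinoic acid binding protein and the single gene called among 12 of the retinoic acid list (0.862% of all genes were lower), read 0.0515, 0.121 and 0.168 against 0.626, 0.335 and 0.639 in testes and 0.657 to 1.5 in wild-type ovaries. It fell by 2.21 from the testis (SE 0.42, adjusted p = 0.00242) and by 3.14 from the wild-type ovary (adjusted p = 7.44e-07). In Wnt4-null ovaries both were also low, at 0.0928 to 0.238 for Glis3 and 0.0803 to 0.101 for Crabp1.

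Other groups of genes gave no call, where 2.19% of all genes were called. For basement membrane genes, 13 of 13 intervals lay within 1 log2 unit of 0, for cell division 17 of 18 and for imprinted genes 16 of 18. Their medians were 0.08, 0.04 and 0.13, and 64.1% of all genes had such an interval. The activin and AMH pathway (12 genes, median 0.01), glycolysis (12 genes, 0.15), red cells (12 genes, -0.05), immediate early genes (13 genes, 0.04), nerve and glia (10 genes, -0.09), duct epithelium (8 genes, -0.22), granulosa cells of growing follicles (8 genes, -0.33) and chromaffin cells (9 genes, 0) had fewer intervals that narrow, from 0 of 8 for duct epithelium to 9 of 12 for the activin and AMH pathway.

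The genes that already differed between the sexes at E13 (8.04% of all genes) were called on differences measured in arrays of other mice. Their p-values, however, used the variance pooled over all groups, with the P0 arrays included. The E13 calls were therefore not independent of the P0 calls, since a gene of low pooled variance passes more readily in both. The part of this shared variance in the overlaps below was not tested. Of the 819 genes higher in ovary than testis at E13, 57 were higher in double null ovary than testis at P0 (6.96%, against 1.33% of all genes). Another 13 were lower (1.59%, against 0.862% of all genes), and the median difference was 0.18. For the wild-type ovary of P0 the same genes gave 399 higher (48.7%, against 16.8% of all genes) and a median of 0.65. Of the 580 genes higher in testis at E13, 19 were lower in double null ovary than testis at P0 (3.28%, against 0.862% of all genes). Another 11 were higher (1.90%, against 1.33% of all genes), and the median was -0.09. For the wild-type ovary of P0 these 580 genes gave 331 lower (57.1%, against 12% of all genes) and a median of -0.75. Read from the P0 calls, 57 of the 231 genes higher in double null ovary (24.7%) were ovary genes of E13, a class that holds 4.71% of all autosomal genes. Of the 150 lower genes, 19 (12.7%) were testis genes of E13, a class that holds 3.33%. Conversely, 11 of the 231 higher genes were testis genes of E13, the class that holds 3.33% of all genes. Of the 150 lower genes, 13 were ovary genes of E13, the class that holds 4.71%. Both of these opposite overlaps were also above the share of all genes.

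As a mean over the 819 ovary genes of E13, the double null ovaries read -1.49, -1.13 and -1.11 on the log2 scale, the testes -1.48, -1.43 and -1.33, and the wild-type ovaries -0.61, -0.66 and -0.56. Double null array 1 was at testis level and the other two arrays were above all testes. Over the 580 testis genes of E13, the double null ovaries read 0.08, 0.11 and 0.09 and the testes 0.19, 0.13 and 0.32, without overlap. On a scale from the wild-type ovary mean (0%) to the testis mean (100%), the double null ovaries stood at 88.0% ± 1.59 (SD, n = 3) for testis genes and at 78.9% ± 26.1 (SD, n = 3) for ovary genes, and the Wnt4-null ovaries at 57.9% ± 6.18 and 50.2% ± 8.72 (SD, n = 3 each).

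**Figure D5:**
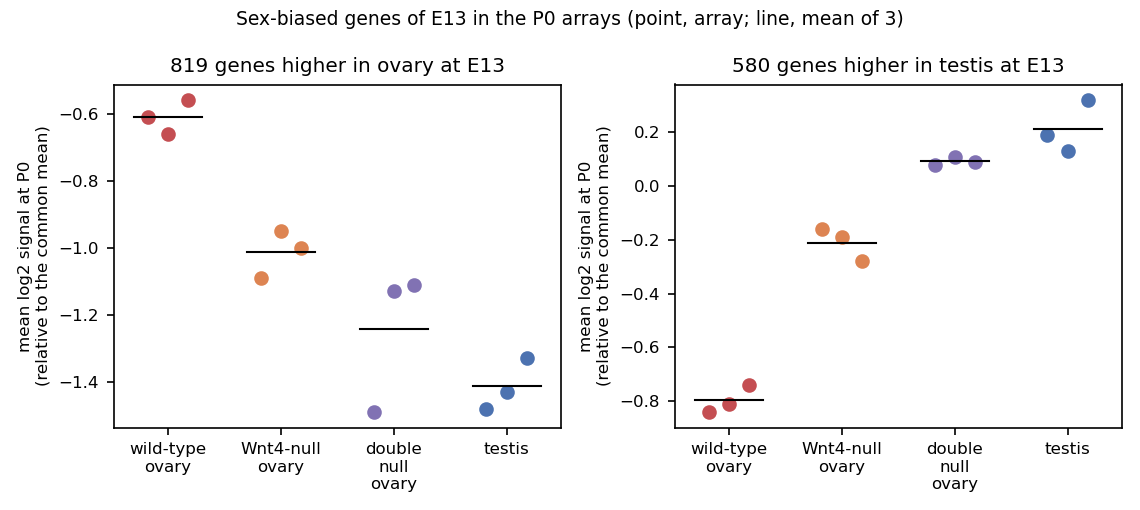
Mean log2 signal at P0, relative to the common mean, of the 819 genes higher in ovary at E13 (left) and the 580 genes higher in testis at E13 (right), with a point per array and a line at the mean of 3. The double null ovaries read -1.49 to -1.11 on the left, where array 1 lies with the testes, and 0.08 to 0.11 on the right, just below the testes.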

How the data were processed

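Gonads of individual mice were profiled on 43 Affymetrix MOE430 v.2 arrays. Per the study's methods, the authors summarised the arrays with plier and scaled them to the global mean, and the deposited values are linear probe set intensities. GCOS 1.3 is named in the submitters' processing notes. No sequencing depth applies, and 3 arrays a group limit the precision. The columns were matched to samples by title. Values were analysed as log2(value + 1% of the common mean) with limma 3.58.1 in R 4.3.3, with 15 group means over 43 arrays, a mean-variance trend and Benjamini-Hochberg adjustment over 45007 probe sets, controls left out. Of the probe sets that name a single symbol, the brightest on average over all arrays stood for the gene. Of the 45007 probe sets, 34927 named 1 symbol, 930 several and 9150 none here. Sex-linked and unplaced genes were left out of all counts. A gene was called at an adjusted p under 0.05. P-values rest on the spread between mice within groups, pooled over the 15 groups and moderated across probe sets, and not on the groups compared alone.

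The genes named were the targeted genes, the called genes with the 12 strongest changes upward and the 12 strongest downward, provided that no array overlapped and that the brighter group averaged more than the median probe set (0.2561 of the common mean), the defining members of each list and up to 4 others of each list by adjusted p. The text gives a subset of these. The members, lists and tests were chosen with earlier results of these data known. List genes without a usable probe set, among them Insl3, Lhcgr, Cyp19a1, Nanos2, Nanos3, Hsd3b6 and H19, were not analysed here. Alternatives comprised the pseudocount, a filter on low signals, quantile and median scaling, the arrays fitted, the probe set used, the variance trend, a replicate block and leaving out each array. The scripts were tested on simulated data.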

Additional observations from a re-analysis of the deposited data

How the results depend on the processing

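Fitted on the 6 arrays alone, the comparison of double null ovary with testis gave 151 calls (80 higher, 71 lower) in place of 381. Leaving out 1 array gave 129 to 436 calls, 71 to 285 higher and 47 to 201 lower. Other comparisons with 1 array left out gave 3672 to 4813 calls for wild-type ovary against testis, 1400 to 1912 for Wnt4-null ovary against testis, 69 to 146 for double null against Wnt4-null ovary (161 with all arrays), 2880 to 3942 for double null against wild-type ovary and 972 to 1428 for the sexes at E13. Under the other settings, the count of the main comparison ran from 265 without the variance trend to 474 after quantile normalization. Replicate numbers did not pair the samples: deviations of arrays with the same number correlated at -0.047, -0.107 and 0.102, and with the number as a block there were 409 calls (250 higher, 159 lower). Scaling to the same median moved the median of all genes from -0.013 to 0.07 and gave 236 higher and 106 lower. Over all named genes and settings, 2852 values kept their side of the threshold, 60 lost it, 51 gained it and 0 changed sign while called. For the lists, 33 counts of higher genes, 36 counts of lower genes and 16 medians moved. Causes were not tested.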

Other observations

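Genes outside the lists, chosen after their values were seen, gave the following values. Podxl, the sialomucin podocalyxin, read 3.26, 5.25 and 5.62 in double null ovaries and 0.626, 1.98 and 1.51 in testes, a rise of 1.88 (adjusted p = 2.86e-06 by limma), and 6.01 to 8.01 in wild-type ovaries. Dmrt3, a relative of Dmrt1, read 0.0388, 0.159 and 0.19 in double null ovaries and 0.939, 0.239 and 0.933 in testes, a fall of 2.36 (adjusted p = 0.0103). Dppa2, the partner of Dppa4, read 0.0437 to 0.0518 against 0.111 to 0.454, a difference of -2.18 that did not pass (adjusted p = 0.101).

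Cd3g, a chain of the T cell receptor complex, read at most 0.00597 in the newborn testes and 0.0817 to 0.13 in the double null ovaries. Ccl20, a chemokine, read at most 0.00708 in the newborn testes and 0.125 to 0.16 in the double null ovaries. Both read 0.0732 to 0.15 in wild-type ovaries of P0. At E13 testes read 0.0000276 to 0.144 for Cd3g and 0.00318 to 0.0115 for Ccl20. No fold is given for either, since the testis values lay below the pseudocount.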
